A study of Mus musculus with 18 samples.

Results

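RNA of 8 ATP-binding cassette (ABC) transporters that export drugs from cells was measured in mouse mammary tumors of 3 genotypes and in normal mammary gland. The 8 genes, Abcb1a, Abcb1b, Abcg2, Abcc1, Abcc3, Abcc4, Abcc5 and Abcc10, were taken by symbol from the 55450 genes of the deposited count table, and all 8 passed the filter on low counts. They were chosen with earlier results of these data known. B1/P/Rbf tumors (Brca1fl/fl/Trp53fl/fl/TgK18GT121Tg/+), B1/P tumors (Brca1fl/fl/Trp53fl/fl) and P/Rbf tumors (Trp53fl/fl/TgK18GT121Tg/+) came from 5 mice each, and normal glands from 3 wild type mice. All mice were females, with the strain labelled C57Bl/6 and given as C57Bl/6 J background in the study's methods. Both floxed genes and the transgene depend on Cre, which was given as an adenovirus (Ad5-CMV-Cre) through the nipple into the ducts of young adult mice, so any infected cell could recombine. The transgene makes T121, an N-terminal piece of the SV40 large T antigen that binds pRb, p107 and p130, under the keratin 18 promoter of luminal epithelial cells. Deletion of Trp53 was common to all 3 tumor models, so no tumor group is without it. Each library was made from the bulk tissue of 1 mouse, and tumors are named here by model and mouse number. Values of single libraries are given in the order 208855, 208857, 208863, 209490 and 210906 for B1/P/Rbf, 225068, 225070, 246361, 255232 and 248662 for B1/P, 287842, 287845, 290860, 287822 and 290845 for P/Rbf, and 330154, 330155 and 330156 for glands.

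ABC transporters move their cargo across membranes with the energy of ATP hydrolysis, which is carried out by a pair of nucleotide-binding domains. P-glycoprotein, the best known of them, exports taxanes, anthracyclines, Vinca alkaloids and the PARP inhibitor olaparib. In the mouse it is encoded by Abcb1a and Abcb1b, where the human genome has the single gene ABCB1, and Abcb1a is the main form in the endothelium of brain capillaries. Abcg2, the breast cancer resistance protein, was first found in a drug-selected breast cancer cell line, and in the lactating mammary gland it carries riboflavin and xenobiotics into milk. The Abcc genes encode multidrug resistance-associated proteins, which export mainly organic anions and conjugates with glutathione or glucuronic acid.

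Total expected counts lay between 27661173 and 37794889 per library with a median of 33802255. Counts of the members ranged from 17.72 for Abcb1b in its lowest library to 6032.06 for Abcc1 in its highest. Levels are CPM, counts scaled to library size, after correction by the trimmed mean of M values (TMM), given as mean ± SD over mice, and are divided by the length of all annotated exons in kb where genes are compared with one another. Trp53 was at 54.4 to 71.8 CPM in normal glands and at 6.75 to 24.3 in tumors. Brca1 was at 4.61 to 5.99 CPM in glands, at 8.13 to 27.9 in B1/P, at 21.1 to 45.0 in B1/P/Rbf and at 44.9 to 116 in P/Rbf tumors, so its level set P/Rbf apart from B1/P tumors but was higher in every tumor than in the glands. The highest value of the B1/P/Rbf group, 45.0, was that of tumor 208863 and lay in the range of P/Rbf tumors. The study found recombination of the floxed alleles by PCR in all tumors. Its supplement reports by RT-qPCR that Brca1 expression was lost in the sequenced B1/P and B1/P/Rbf tumors, only partially in tumor 208863. That assay was set relative to a P/Rbf tumor and not to glands, and the CPM here count the whole gene, so the measures differ. The 5 adipocyte markers summed to 3900 to 6100 CPM in glands and to at most 54.7 in any tumor. The 5 lymphocyte markers summed to 442 to 627 CPM in glands and to 13.9 to 118 in tumors, and the 4 skeletal muscle markers to 20500 to 40200 in glands and to at most 553 in tumors. Mouse numbers of the B1/P/Rbf group and of 3 B1/P tumors (225068, 225070 and 246361) ran up to 246361, while those of B1/P tumors 248662 and 255232, of the P/Rbf group and of the glands were higher. The labels do not explain the numbers, and the border between these ranges was set by hand with earlier results known and is not the widest gap between numbers. No range holds both B1/P/Rbf tumors and P/Rbf tumors or glands, so no value within a range can be given for these comparisons, and a fit with a term for the range takes its size from the B1/P tumors alone.

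Summed over the 8 genes, levels per kb were 34.5 ± 2.35 CPM in normal glands (n = 3), 27.2 ± 6.96 in B1/P/Rbf, 25.8 ± 9.22 in B1/P and 16.9 ± 1.11 in P/Rbf tumors (n = 5 each). P/Rbf tumors spanned 15.2 to 18.0 and lay below all glands, which spanned 32.2 to 36.9, and below all B1/P/Rbf tumors, which spanned 19.9 to 35.0, whereas B1/P tumors, at 15.1 to 38.4, overlapped every other group. By this length, the gene with the highest mean share of the sum was Abcc5 in glands with 29.1 ± 1.70%, Abcc3 in B1/P/Rbf tumors with 30.2 ± 14.0%, Abcc1 in B1/P tumors with 28.6 ± 7.19% and Abcc4 in P/Rbf tumors with 31.2 ± 12.6%. Without B1/P/Rbf tumor 208855 the mean share of Abcc3 in that model was 25.4%, below that of Abcc1 at 26.3%, so the order there rests on 1 tumor. The order also depends on the length used, since the annotated exons of Abcc1 add up to 15092 bases and its longest coding transcript has 6792. With the longest coding transcript of each gene, a choice made after seeing the data, Abcc1 had the highest mean share in all 3 tumor models (34.9% in B1/P/Rbf, 39.1% in B1/P and 37.1% in P/Rbf) and Abcc5 still in glands (34.6%), and the sums of P/Rbf tumors (20.7 to 27.8) still lay below those of B1/P/Rbf tumors (31.6 to 50.1) and glands (50.1 to 56.4). By the length of all annotated exons, the shares varied widely between tumors of one model, and Abcc4 alone made up 4.26% to 55.0% in B1/P/Rbf tumors. In normal glands the SD of every gene's share by that length was 1.70 percentage points or less.

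**Figure D1:**
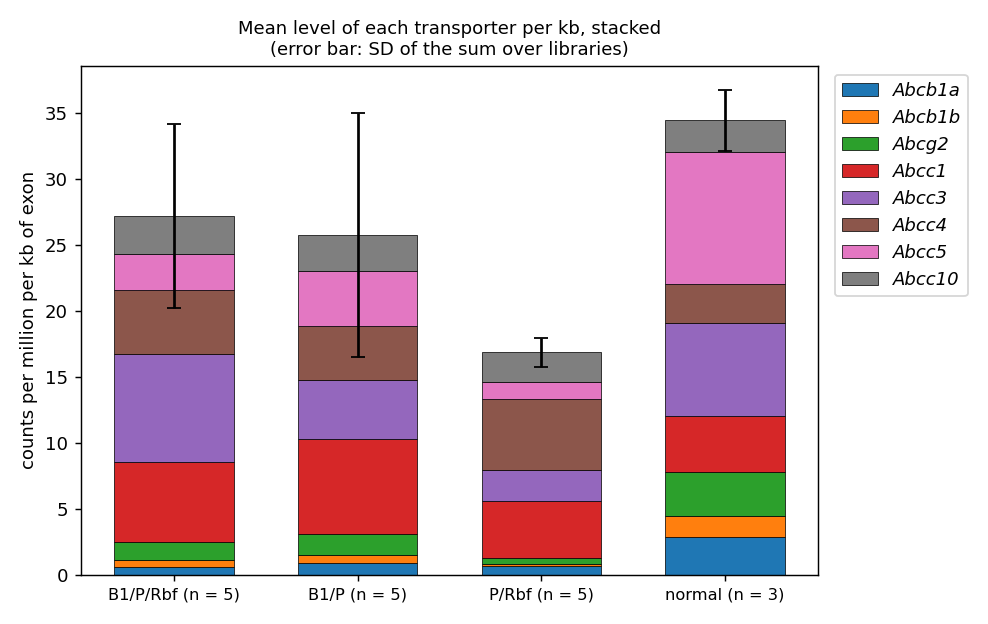
Mean level of each transporter in CPM per kb of exon (vertical axis), stacked for the 4 groups, with the SD of the sum over libraries as error bar. The sum is 34.5 in normal glands and 16.9 in P/Rbf tumors, and the mean share of Abcc5 is 29.1% in glands against 7.84% in P/Rbf tumors.

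All 8 genes were tested with 19186 genes in a single edgeR quasi-likelihood fit, and genes were called where p, adjusted by Benjamini and Hochberg's method, was at most 0.05. In P/Rbf against B1/P tumors 2 members were called, Abcb1b and Abcc5, both lower in P/Rbf, where 19.2% of all genes were called in either direction and 10.8% were called lower. The members' median log2 fold change there was -0.83, beside -0.05 over all genes tested. In that comparison DESeq2 called 3 members, beside 5028 of 19186 genes, and limma-voom 1, beside 3159. With a term for mouse number 0 were called, beside 2008, and without single libraries 1 to 3. In B1/P/Rbf against B1/P tumors none was called, beside 16.7% of all genes. There 1 member passed an unadjusted p of 0.05, beside 31.3% of all genes, and DESeq2 and limma-voom called 0, beside 23% and 16%. In B1/P/Rbf against P/Rbf tumors none was called, beside 0.281% of all genes. There 4 members passed an unadjusted p of 0.05, beside 16.1% of all genes, DESeq2 called 2 (Abcb1b and Abcc3), beside 5.29%, and limma-voom called 0, beside 0.136%. The direction was higher in B1/P/Rbf for 6 of the 8, with a median log2 fold change of 0.78 beside -0.01 over all genes tested.

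Against normal glands, every called member was lower in tumors. In P/Rbf tumors 5 members were called, all lower, beside 37.7% of all genes called and 20.3% called lower, namely Abcb1a, Abcb1b, Abcg2, Abcc3 and Abcc5. Abcb1a and Abcc5 were called lower in B1/P/Rbf tumors, 2 members beside 37% of all genes called and 20% called lower. In B1/P tumors none was called, beside 33.8% of all genes in either direction. There 2 members (Abcb1a and Abcc5) passed an unadjusted p of 0.05, beside 44.1% of all genes, and the same 2 were called by DESeq2, beside 39%, and by limma-voom, beside 36.6%. The median log2 fold change of the members was -1.83 in P/Rbf, -0.58 in B1/P/Rbf and -0.87 in B1/P tumors, beside 0.05, 0.05 and 0.12 over all genes tested. Every tumor lay below every gland for 5 members in P/Rbf (beside 26.5% of all genes), 4 in B1/P/Rbf (27.4%) and 5 in B1/P (22.7%). These 3 comparisons share the same 3 glands, so their results are not independent of each other. In bulk tissue, fewer cells of a type and less RNA per cell cannot be told apart. The calls in P/Rbf and B1/P/Rbf tumors remained without TMM scaling, which raised the median of all genes against glands to 0.33 in P/Rbf, 0.42 in B1/P/Rbf and 0.47 in B1/P tumors. Of all genes called against glands, the share that was higher in the tumor went at the same time from 46.1% to 59.9% in P/Rbf, from 46.0% to 64.0% in B1/P/Rbf and from 49.9% to 67.8% in B1/P tumors.

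**Figure D2:**
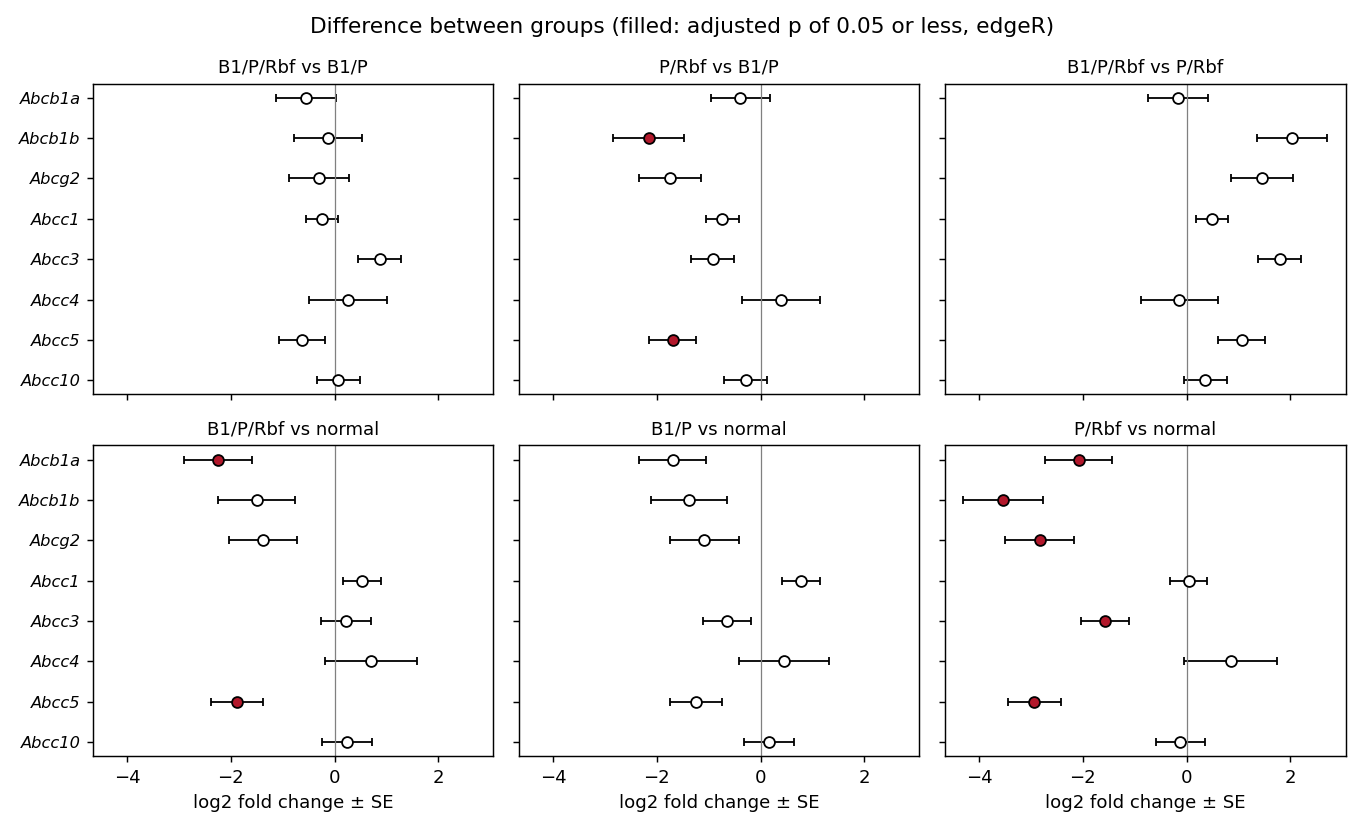
Log2 fold change (horizontal axis) with its SE for each of the 8 transporters in the 6 comparisons, with filled points where the adjusted p was 0.05 or less. Every filled point lies left of 0, and 5 of the 9 are in P/Rbf tumors against normal glands.

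**Figure D3:**
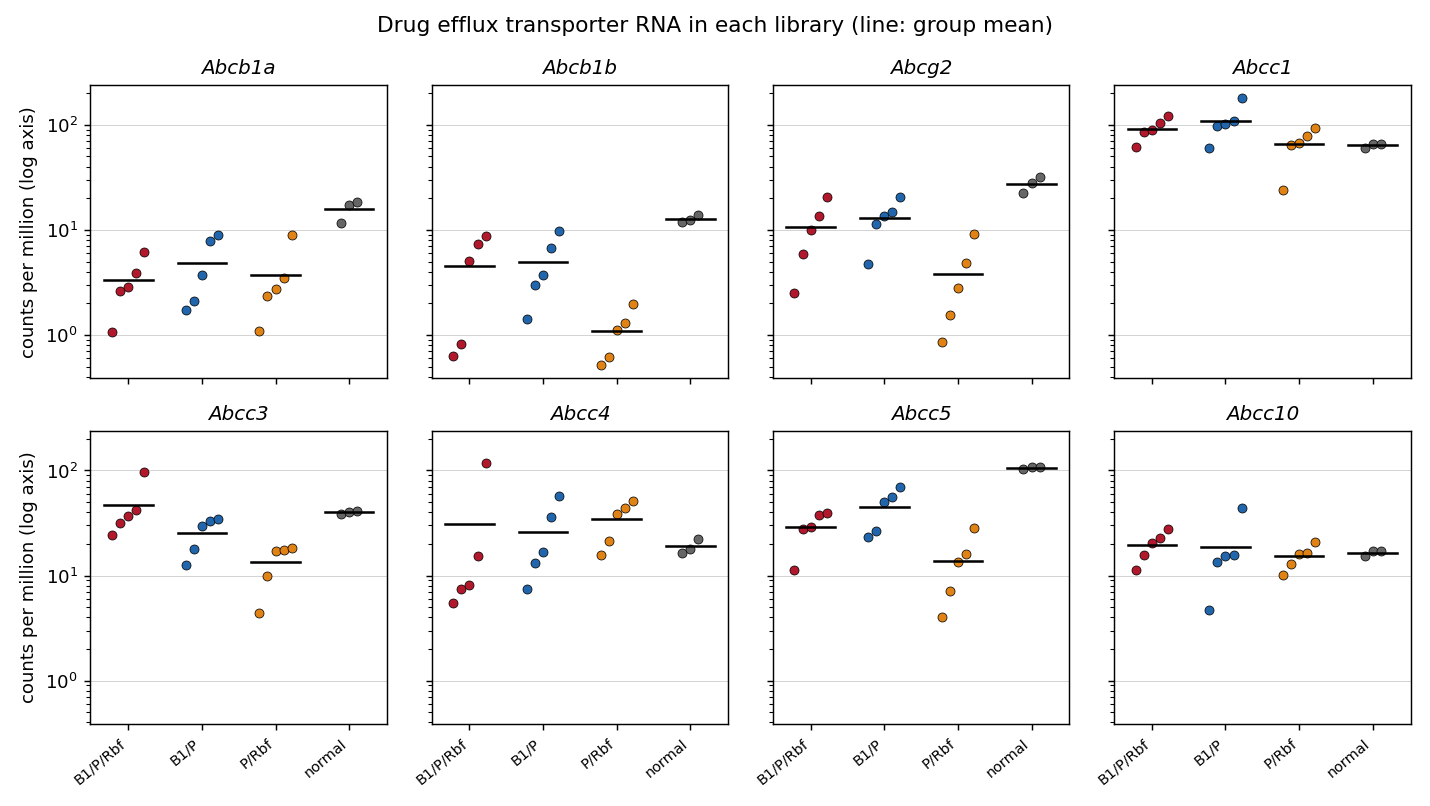
CPM of each transporter (log axis) in every library of the 4 groups, with the group mean as a line. The 3 normal glands lie close together for every gene, while 1 B1/P/Rbf tumor stands at 119 for Abcc4 and the P/Rbf tumors lie at 0.518 to 1.96 for Abcb1b.

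The P-glycoprotein genes Abcb1a (ENSMUSG00000040584.8, chr5:8660077-8748575) and Abcb1b (ENSMUSG00000028970.9, chr5:8798147-8866315) lie side by side on the plus strand of GRCm38 chromosome 5. Their coding sequences of 3828 bases each are 88.1% identical over 3819 aligned bases. The longest run without a difference is 338 bases, and 15.5% of the 50-base windows of the Abcb1a transcript occur unchanged in Abcb1b, while no other pair among the 8 genes shares any such window. The quantification by RSEM divides reads that match both genes, and both had counts that were not whole in all 18 libraries, so the split between them is an estimate. The stretch printed first, read from the GENCODE M21 transcripts, is identical in both, so a fragment that lies wholly within it cannot tell the genes apart. It covers coding positions 1436 to 1615 of Abcb1a and 1445 to 1624 of Abcb1b, and the capitals mark the 15 bases of the ABC signature motif, a hallmark of the nucleotide-binding domain that was found by translation in frame.
Abcb1a and Abcb1b: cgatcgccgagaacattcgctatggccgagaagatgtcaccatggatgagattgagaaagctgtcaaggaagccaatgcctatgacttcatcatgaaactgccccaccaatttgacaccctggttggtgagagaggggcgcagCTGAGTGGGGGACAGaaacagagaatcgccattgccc
The other pair shows the 180 bases in which the genes differ most, positions 2093 to 2272 of Abcb1a and 2099 to 2278 of Abcb1b, with 52 differing bases in capitals.
Abcb1a: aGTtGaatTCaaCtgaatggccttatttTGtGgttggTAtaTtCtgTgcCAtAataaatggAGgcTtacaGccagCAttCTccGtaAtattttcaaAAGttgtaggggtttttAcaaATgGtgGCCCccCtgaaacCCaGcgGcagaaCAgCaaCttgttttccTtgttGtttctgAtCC
Abcb1b: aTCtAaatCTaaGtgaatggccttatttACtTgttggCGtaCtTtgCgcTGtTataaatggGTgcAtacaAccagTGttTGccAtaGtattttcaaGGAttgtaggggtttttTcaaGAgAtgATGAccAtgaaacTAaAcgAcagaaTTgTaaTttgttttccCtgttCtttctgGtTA

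Abcb1a was highest in normal glands. It stood at 18.4, 11.6 and 17.2 CPM in the glands, at 6.10, 2.89, 2.62, 1.07 and 3.93 in B1/P/Rbf, at 3.75, 7.79, 8.87, 1.74 and 2.11 in B1/P and at 2.73, 3.47, 1.09, 8.92 and 2.35 in P/Rbf tumors. Every gland was above every tumor, and the 3 tumor models overlapped. The log2 fold change against glands was -2.24 ± 0.652 (SE) in B1/P/Rbf (edgeR adjusted p = 0.0126), -2.08 ± 0.651 in P/Rbf (0.0185) and -1.69 ± 0.649 in B1/P tumors (0.0527). Leaving out gland 330154 or 330156 ended the call in P/Rbf tumors, with adjusted p values of 0.0656 and 0.058. Over all alternatives the adjusted p in B1/P tumors lay between 0.0122 and 0.144. With a term for mouse number the value was -4.06 (0.0111) in B1/P/Rbf and -3.02 (0.0153) in B1/P tumors. Between tumor models no log2 fold change of Abcb1a exceeded 0.55 in size, against SEs of 0.576 to 0.577. With the term for mouse number these differences were larger, at -1.98 (adjusted p = 0.373) for B1/P/Rbf against P/Rbf, -1.04 (0.253) for B1/P/Rbf against B1/P and 0.94 (0.43) for P/Rbf against B1/P tumors, and none was called.

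Abcb1a was set beside the endothelial markers of the libraries, a relation chosen after its values were seen. The 6 markers (Pecam1, Cdh5, Kdr, Tie1, Emcn and Cldn5), none at 0 throughout a group, summed to 413 to 467 CPM in glands, 107 to 333 in B1/P/Rbf, 112 to 285 in B1/P and 77.8 to 276 in P/Rbf tumors. In P/Rbf tumors 5 of the 6 were called lower than in glands, and in each of the other models 3 of the 6, beside 20.3%, 20% (B1/P/Rbf) and 16.9% (B1/P) of all genes. These counts rested on single libraries. The 5 became 2 without gland 330155, and both counts of 3 became 1 without gland 330154 or 330155, in B1/P/Rbf also without tumor 208863, 209490 or 210906 and in B1/P also without tumor 255232 or 248662. In each of the 3 models the tumor with the highest endothelial sum was the tumor with the highest Abcb1a: B1/P/Rbf tumor 208855 with a sum of 333 CPM, B1/P tumor 246361 with 285 and P/Rbf tumor 287822 with 276. Some of these tumors led other lists too. Pericyte sums were highest of their models in 208855 (518 CPM) and 246361 (761), but in P/Rbf in 287845 (387). Macrophage sums were highest in 208855 (442) and 287822 (302), but in B1/P in 225070 (900). The glands ran the other way, since gland 330155 had the highest sum of all libraries, 467 CPM, and the lowest Abcb1a of the 3, 11.6. Per 1000 CPM of endothelial markers, Abcb1a was at 36.2 ± 9.82 in glands, 18.8 ± 7.54 in B1/P/Rbf, 22.3 ± 7.23 in B1/P and 25.1 ± 8.86 in P/Rbf tumors. On this scale glands spanned 24.9 to 42.1 and overlapped each tumor model, whose highest values were 30.5, 31.1 and 35.1. The part of endothelial cells in the lower Abcb1a of tumors was not tested.

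**Figure D4:**
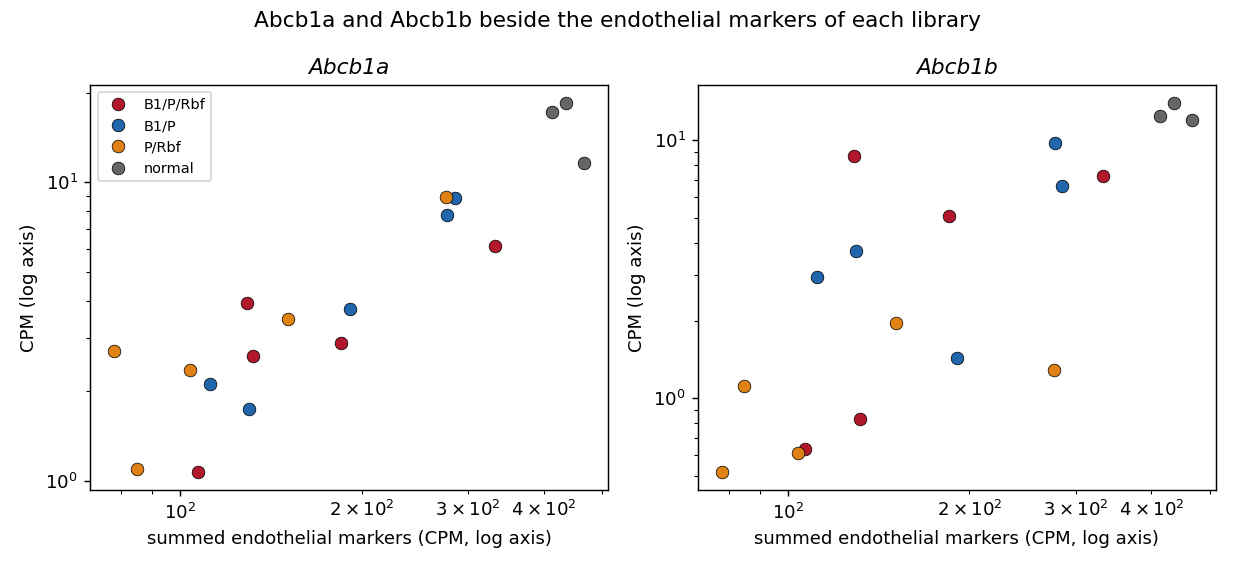
Level of Abcb1a and of Abcb1b (vertical log axes, CPM) against the summed level of 6 endothelial markers (horizontal log axis) in the 18 libraries, colored by group. P/Rbf tumor 287822, at 276 CPM of markers, has 8.92 CPM of Abcb1a and 1.29 of Abcb1b.

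Abcb1b, the paralog known from adrenal gland, placenta and ovary, had its lowest mean in P/Rbf tumors. It stood at 13.9, 12.0 and 12.4 CPM in glands, at 7.29, 5.07, 0.827, 0.634 and 8.70 in B1/P/Rbf, at 1.43, 9.72, 6.66, 3.73 and 2.96 in B1/P and at 0.518, 1.96, 1.11, 1.29 and 0.613 in P/Rbf tumors. The glands again lay above every tumor, and B1/P/Rbf tumors fell apart into 3 above 5 CPM and 2 below 1. Against glands, P/Rbf tumors fell by 3.54 ± 0.765 (SE) on the log2 scale, 11.6-fold (edgeR adjusted p = 0.00165), while B1/P/Rbf tumors were at -1.50 ± 0.736 (0.119) and B1/P tumors at -1.38 ± 0.736 (0.158). In B1/P/Rbf tumors limma-voom alone of the 24 alternatives called it (-1.86, adjusted p = 0.0284, over a range of 0.0284 to 0.24). Against B1/P tumors, P/Rbf tumors were 4.45-fold lower, with a log2 fold change of -2.15 ± 0.684 (0.0359). The P/Rbf and B1/P groups overlapped only through B1/P tumor 225068 at 1.43 CPM. Within the higher mouse numbers, both B1/P tumors (3.73 and 2.96) lay above all 5 P/Rbf tumors. The call was lost with limma-voom (-1.53, adjusted p = 0.145), with a term for mouse number (-1.60, 0.227) and in 9 of 18 fits that left out 1 library (highest 0.0816: B1/P tumors 225070 and 246361, P/Rbf tumors 287842, 290860, 287822 and 290845, and each of the 3 glands), over a range of 0.00654 to 0.227 for all alternatives. B1/P/Rbf tumors were 4.09-fold above P/Rbf tumors (log2 fold change 2.03 ± 0.681, 0.155, not called).

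Abcb1b made up 45.3 ± 4.87% of the CPM of both genes in glands, 49.7 ± 18.7% in B1/P/Rbf, 50.5 ± 15.6% in B1/P and 27.2 ± 15.9% in P/Rbf tumors. The share in P/Rbf tumors ran from 12.6% in tumor 287822, the one with the highest Abcb1a, to 50.6% in tumor 290860, and overlapped all other groups. The gene before Abcb1a on the chromosome, Rundc3b, was also lower in P/Rbf than in B1/P tumors (log2 fold change -3.21, adjusted p = 0.0287) and than in glands (-2.83, 0.0382), whereas Abcb1a, between Rundc3b and Abcb1b, differed from B1/P tumors by -0.39 (0.67). Abcb4, which follows Abcb1b and encodes the phosphatidylcholine exporter of bile canaliculi, fell far more than either drug exporter, from 53.8 ± 20.4 CPM in glands to 0.121 ± 0.0852 in B1/P/Rbf, 0.308 ± 0.235 in B1/P and 0.352 ± 0.264 in P/Rbf tumors (log2 fold changes of -8.77, -7.44 and -7.24 with adjusted p values of 4.43e-07, 1.87e-06 and 1.35e-06). Crot, the next tested gene, was lower than in glands by far less, at -0.72 (0.00935) in B1/P/Rbf and -0.64 (0.0181) in P/Rbf tumors, and was not called in B1/P tumors (-0.36, 0.18). Tmem243, tested next after Crot, was called lower than in glands in all 3 models. Its values were -1.75 (0.000559) in B1/P/Rbf, -1.64 (0.0011) in B1/P and -2.07 (0.000128) in P/Rbf tumors.

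**Figure D5:**
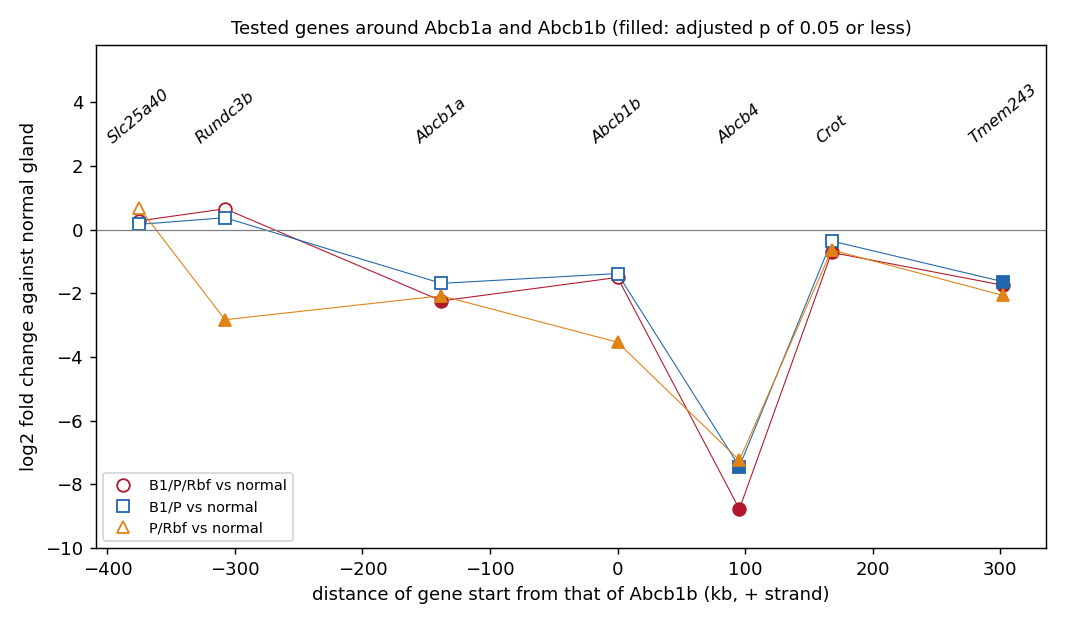
Log2 fold change against normal gland (vertical axis) of the 7 tested genes around Abcb1a and Abcb1b, by the distance of their starts from that of Abcb1b in kb (horizontal axis), for the 3 tumor models, with filled points where the adjusted p was 0.05 or less. Abcb4 lies at -7.24 or lower in all 3 models, and Rundc3b lies at -2.83 in P/Rbf tumors and above 0 in the other models.

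Promoters of these genes are shown beside that of Abcc5, the other member called lower in P/Rbf than in B1/P tumors. They are the RefSeq windows of 300 bases, 250 before and 50 after the start, on GRCm38.p6: chr5:8566841-8567140 (plus strand) for Abcb1a, chr5:8797897-8798196 (plus strand) for Abcb1b and chr16:20426345-20426644 (minus strand) for Abcc5. Such windows were matched for 6 of the 8 members. The RefSeq start of Abcb1a lies far upstream of the start in GENCODE M21, chr5:8660077, so this window lies outside that gene model. The counts are those of the GENCODE model, so the Abcb1a window is not at the start of the gene as counted. The windows of Abcb1b and Abcc5 span their GENCODE starts. Capitals mark matches on either strand to CCAAT (bound by NF-Y), GGGCGG (a GC box), TGACNNNGC (the core of an antioxidant response element) or GCGTG (the core shared by aryl hydrocarbon receptor and hypoxia response elements).
Abcb1a: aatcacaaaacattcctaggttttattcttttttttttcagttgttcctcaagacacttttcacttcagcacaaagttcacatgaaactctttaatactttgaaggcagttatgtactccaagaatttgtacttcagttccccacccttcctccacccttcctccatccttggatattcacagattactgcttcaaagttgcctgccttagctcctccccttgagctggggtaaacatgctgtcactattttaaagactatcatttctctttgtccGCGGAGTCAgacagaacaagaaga
Abcb1b: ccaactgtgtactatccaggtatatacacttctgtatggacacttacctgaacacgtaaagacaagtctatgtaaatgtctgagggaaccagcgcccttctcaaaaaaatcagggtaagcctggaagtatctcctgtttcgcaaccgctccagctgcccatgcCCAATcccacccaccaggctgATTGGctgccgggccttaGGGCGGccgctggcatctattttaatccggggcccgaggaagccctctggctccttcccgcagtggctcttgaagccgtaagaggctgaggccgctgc
Abcc5: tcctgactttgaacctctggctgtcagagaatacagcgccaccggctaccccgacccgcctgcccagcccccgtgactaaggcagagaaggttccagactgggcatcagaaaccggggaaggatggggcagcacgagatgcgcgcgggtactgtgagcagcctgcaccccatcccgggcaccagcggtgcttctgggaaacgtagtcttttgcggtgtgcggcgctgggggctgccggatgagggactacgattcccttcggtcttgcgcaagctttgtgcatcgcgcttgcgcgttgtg
Abcb1b held 2 CCAAT and 1 GGGCGG, Abcb1a 1 TGACNNNGC, and Abcc5 none of the 4. Of 32851 promoters of the same length, 37.4% held CCAAT, 35.7% GGGCGG, 12.4% TGACNNNGC and 32.4% GCGTG. These matches are a description of the windows.

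Abcg2 (ENSMUSG00000029802.13, chr6:58584523-58695676, plus strand) fell in P/Rbf tumors. It stood at 32.1, 22.6 and 27.7 CPM in glands, at 20.6, 5.96, 2.51, 9.99 and 13.7 in B1/P/Rbf, at 4.74, 13.5, 14.8, 20.4 and 11.3 in B1/P and at 1.55, 2.81, 4.83, 9.19 and 0.851 in P/Rbf tumors. No tumor reached the lowest gland, and 4 of the 5 P/Rbf tumors were at or below 4.83. P/Rbf tumors were 7.12-fold below glands (log2 fold change -2.83 ± 0.671, edgeR adjusted p = 0.00326), a call that remained in all 24 alternatives that tested the gene. Against B1/P tumors the difference of -1.75 ± 0.602 lay at the threshold (0.0504) and ranged from 0.016 to 0.111 over the alternatives. Within the higher mouse numbers, the 2 B1/P tumors (20.4 and 11.3) were above all P/Rbf tumors. Against glands neither of the other models was called, with -1.38 ± 0.659 in B1/P/Rbf (0.111) and -1.08 ± 0.66 in B1/P (0.217), but limma-voom called B1/P/Rbf tumors (-1.52, adjusted p = 0.0295, over a range of 0.0295 to 0.63).

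Abcc5 (ENSMUSG00000022822.16, chr16:20331303-20426394, minus strand), an exporter of cyclic nucleotides and of nucleotide drug analogs, lay far apart in glands and tumors. It was at 109, 107 and 104 CPM in glands, at 37.8, 28.7, 28.0, 11.2 and 39.7 in B1/P/Rbf, at 49.8, 56.3, 69.2, 26.6 and 23.1 in B1/P and at 4.00, 16.2, 28.6, 13.6 and 7.15 in P/Rbf tumors. The highest tumor of all, B1/P tumor 246361, was at 69.2, well below the lowest gland. The log2 fold change against glands was -2.94 ± 0.512 in P/Rbf, a 7.67-fold fall (edgeR adjusted p = 0.000273), and -1.88 ± 0.503 in B1/P/Rbf tumors (0.00775), and both were called in all 24 alternatives that tested the gene. In B1/P tumors it was -1.25 ± 0.503 (0.0649, with 0.0145 to 0.18 over the alternatives). With a term for mouse number these values were -3.11 (0.0122) in B1/P/Rbf and -2.10 (0.0243) in B1/P tumors. P/Rbf tumors were also 3.23-fold below B1/P tumors (log2 fold change -1.69 ± 0.458, 0.0169). That call remained in all 18 fits without 1 library, but with a term for mouse number the difference was -0.84 (0.327), and it was lost when only these groups were fitted (0.0636). Within the higher mouse numbers the B1/P tumors, at 26.6 and 23.1, lay inside the range of P/Rbf tumors. The 3 B1/P tumors with lower numbers lay at 49.8 to 69.2, above all P/Rbf tumors. They also lay above all B1/P/Rbf tumors, at 11.2 to 39.7, whose numbers fall in the same range. Over all B1/P tumors, B1/P/Rbf tumors differed by -0.63 ± 0.447 (edgeR adjusted p = 0.355). That value was -1.01 to -0.42 over the alternatives and was called in none.

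Markers of other cell types differed between P/Rbf and B1/P tumors as well. Beside 19.2% of all genes called there, 4 of 5 pericyte markers were called lower in P/Rbf, with sums of 184 to 387 CPM against 416 to 761. Of 5 luminal epithelial markers 4 were called higher, with sums of 3660 to 8330 CPM against 694 to 2180. The other, Elf5, went the opposite way without a call, at 9.72 ± 15.9 CPM in P/Rbf against 49.7 ± 24.4 in B1/P tumors. Of 5 basal epithelial markers 2 (Oxtr and Trp63) were called lower, with sums of 61.8 to 1190 against 310 to 1830. The call of Trp63 (adjusted p = 0.0408) was lost in 9 of 18 fits without 1 library (highest 0.0872). Fibroblast and macrophage lists had 1 of 5 called lower each (Pdgfra, and Mrc1, which was lost without B1/P tumor 225070 or P/Rbf tumor 287842 or 290845), with sums of 933 to 2870 against 1540 to 7250 CPM and of 146 to 302 against 196 to 900. Of 4 skeletal muscle markers 3 were called lower (Ckm, Acta1 and Myh4), carried by B1/P tumor 248662 with a sum of 553 CPM against at most 7.98 in the other B1/P and 2.89 in P/Rbf tumors, and without that tumor 0 were called. No marker was at 0 throughout either group. Their part in the lower Abcb1b and Abcc5 of P/Rbf tumors was not tested. Of the other cell types, the sums of adipocyte, lymphocyte and skeletal muscle markers were far higher in glands than in tumors, and their part in the differences from glands was not tested either.

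Abcc4 (ENSMUSG00000032849.14, chr14:118482692-118706219, minus strand), which exports cyclic nucleotides and prostaglandins, was called in no comparison and had the widest range within one model. It stood at 22.5, 16.5 and 18.0 CPM in glands, at 15.4, 8.17, 119, 5.43 and 7.40 in B1/P/Rbf, at 35.8, 13.1, 56.9, 7.42 and 16.7 in B1/P and at 43.9, 38.7, 15.8, 21.3 and 51.3 in P/Rbf tumors. B1/P/Rbf tumor 208863, the one with partial loss of Brca1, stood 21.9 times above the lowest tumor of its model, and the other 4 lay below the lowest gland. With all tumors the log2 fold change of B1/P/Rbf against B1/P tumors was 0.26 ± 0.748 (edgeR adjusted p = 0.852), and without tumor 208863 it was -1.51 (0.0719). Against glands the value went from 0.71 ± 0.886 (0.564) to -1.06 (0.17) in the same way. P/Rbf tumors were at 0.85 ± 0.891 against glands (0.475).

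Abcc3 (ENSMUSG00000020865.16, chr11:94343295-94392997, minus strand), an exporter of glucuronides and bile salts, did not overlap between the models that carry the transgene. It stood at 97.8, 36.8, 24.5, 42.3 and 31.7 CPM in B1/P/Rbf tumors, all above the 17.1, 18.4, 9.90, 17.6 and 4.39 of P/Rbf tumors. The log2 fold change was 1.79 ± 0.422, or 3.46-fold, with an unadjusted p of 0.000527 and an edgeR adjusted p of 0.0748, and it was called by DESeq2 (0.00264) in 1 of 24 alternatives, with 0.00264 to 0.359 over all. It was the only 1 of the 8 members without overlap between these groups, beside 1.71% of all genes that were higher without overlap. B1/P tumors overlapped both, at 18.0, 33.1, 29.5, 12.6 and 34.5, and glands were at 41.4, 38.4 and 40.3. P/Rbf tumors were 2.97-fold below glands (log2 fold change -1.57 ± 0.463, 0.0132, called in all 24 alternatives that tested the gene), and all B1/P tumors also lay below all glands without a call (-0.65 ± 0.465, 0.296).

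Abcc1 (ENSMUSG00000023088.17, chr16:14361558-14475737, plus strand), which exports glutathione conjugates, leukotriene C4 and anthracyclines, was the member with the most counts and was not called in any comparison. It was at 65.3, 60.3 and 65.8 CPM in glands, at 85.8, 90.2, 61.2, 103 and 121 in B1/P/Rbf, at 96.5, 179, 108, 60.0 and 102 in B1/P and at 64.1, 67.4, 93.8, 24.0 and 78.3 in P/Rbf tumors. In B1/P and in B1/P/Rbf, 4 of 5 tumors each were above all glands, and P/Rbf tumors lay on both sides of them. The log2 fold change against glands was 0.77 ± 0.368 in B1/P (edgeR adjusted p = 0.115), 0.53 ± 0.365 in B1/P/Rbf (0.269) and 0.04 ± 0.359 in P/Rbf tumors (0.945). In B1/P tumors it was called without TMM scaling (1.12, 0.026) and without P/Rbf tumor 287822 (0.0484), with adjusted p values up to 0.587 over the alternatives.

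Abcc10 (ENSMUSG00000032842.13, chr17:46303221-46328352, minus strand), which exports taxanes and an estradiol glucuronide, was called in no comparison and averaged 16.6 ± 0.899 CPM in glands, 19.6 ± 6.23 in B1/P/Rbf, 18.6 ± 14.9 in B1/P and 15.3 ± 3.95 in P/Rbf tumors. Single tumors were at 11.4, 20.5, 22.9, 15.8 and 27.5 in B1/P/Rbf, at 15.4, 15.6, 44.1, 13.4 and 4.73 in B1/P and at 13.0, 10.2, 15.9, 20.7 and 16.4 in P/Rbf. B1/P tumor 246361, at 44.1, stood far above the other 4 of its model. The gene overlaps Dlk2 on the opposite strand, and Dlk2 was at 41.7 CPM in that same tumor, at 7.95, 0.118, 4.35 and 2.68 in the other B1/P tumors and at no more than 0.312 in any other library. Whether the counting used the strand of the reads is not given in the sources used here, so whether reads of Dlk2 entered the count of Abcc10 was not tested. Without this tumor, Abcc10 in B1/P against glands went from 0.17 (adjusted p = 0.814) to -0.43 (0.404). Abcb1b has an antisense partner too, Gm5106, but it had at most 4 counts in any library.

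The rest of the ABC family was measured alongside. Of 45 other ABC genes listed, 35 passed the filter. In P/Rbf against B1/P tumors 5 were called higher and 9 lower, and in B1/P/Rbf against B1/P tumors 2 higher and 6 lower, beside 8.43% higher and 10.8% lower, and 7.36% higher and 9.29% lower, of all genes. Without P/Rbf tumor 287822 the 5 higher became 0, and without B1/P/Rbf tumor 208857 or 208863 the 6 lower became 3, and the 2 higher there became 1 in 11 of 18 fits without 1 library. These comparisons share the same 5 B1/P tumors, here and in the lists that follow, so their results are not independent. The median log2 fold change of those 35 was 0.11 and 0.08, beside -0.05 and -0.06 over all genes tested. Against glands, 10 were called lower and 1 higher in B1/P/Rbf, 9 lower and 2 higher in B1/P, and 10 lower and 2 higher in P/Rbf tumors, with medians of -0.24, -0.60 and -0.21. The lower calls made up 28.6%, 25.7% and 28.6% of the 35, beside 20%, 16.9% and 20.3% of all genes, and the higher calls 2.86%, 5.71% and 5.71%, beside 17.1%, 16.8% and 17.4%. In B1/P tumors the 9 lower became 5 without gland 330154 or 330156, and the 2 higher became 0 without gland 330155 or 330156, while the 2 higher in P/Rbf tumors became 1 without any 1 of the glands. Abcd2, a peroxisomal carrier of very long-chain fatty acids, fell from 244 ± 51.7 CPM in glands to 1.54 ± 1.22 in B1/P/Rbf, 1.53 ± 0.991 in B1/P and 0.47 ± 0.292 in P/Rbf tumors, beside adipocyte markers that summed to at most 54.7 CPM in any tumor, whose part was not tested. Abca12, a lipid carrier of the epidermis, was at 12.4, 0.0889, 27.4, 5.06 and 77.0 CPM in B1/P tumors and at no more than 1.17 in any B1/P/Rbf tumor and 0.734 in any P/Rbf tumor, called lower in both (adjusted p = 0.0108 and 0.0102). The chloride channel gene Cftr was called higher than in glands in all 3 models (0.00455 in B1/P/Rbf, 0.021 in B1/P and 0.0177 in P/Rbf), at 1.62 to 39.0, 0.0636 to 10.7 and 0.0263 to 8.34 CPM. The glands held 1 count of Cftr in all, so no fold is given, and the calls in B1/P and P/Rbf tumors were lost without any 1 of the 3 glands (highest 0.0851 and 0.0724). Abca1, the cholesterol exporter to apolipoprotein A-I, fell in both models with the transgene, from 199 ± 135 CPM in B1/P to 45.3 ± 16.0 in B1/P/Rbf (log2 fold change -2.14 ± 0.48, edgeR adjusted p = 0.00632) and 36.6 ± 25.7 in P/Rbf tumors (-2.44 ± 0.48, 0.00313). Abcc8, the sulfonylurea receptor subunit of potassium channels, rose from 2.59 ± 2.71 CPM in B1/P to 94.5 ± 69.2 in B1/P/Rbf tumors (5.18 ± 1.38, 0.0169). Abcc9, its relative in vascular muscle cells and pericytes, fell in both, by 1.22 ± 0.32 on the log2 scale in B1/P/Rbf (0.017) and by 1.76 ± 0.33 in P/Rbf (0.00229), where 2 of 5 and 4 of 5 pericyte markers were called lower. The part of pericytes in this was not tested. Abcg3, a rodent relative of Abcg2, fell from 3.91 ± 2.69 CPM in B1/P to 1.14 ± 0.559 in B1/P/Rbf (-1.77 ± 0.56, 0.0399, lost in 9 of 18 fits without 1 library) and 0.862 ± 0.571 in P/Rbf tumors (-2.17 ± 0.57, 0.0148).

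Genes that are known to regulate efflux transporters or to share their work were also measured, from lists written with earlier results of these data known. Of 10 regulators listed, 8 were tested, and against B1/P tumors 3 were called higher in B1/P/Rbf, beside 7.36% of all genes called higher. These were Esr1, the estrogen receptor (181 ± 60.5 against 10.6 ± 6.85 CPM, log2 fold change 4.10 ± 0.54, edgeR adjusted p = 0.000303), Pgr, the progesterone receptor (4.19 ± 1.27, 0.0321, lost without B1/P/Rbf tumor 208857 or B1/P tumor 246361, highest 0.0692), and Hif1a, the hypoxia factor (2.35 ± 0.34, 0.000476). In P/Rbf tumors 2 of them, Esr1 (2.33 ± 0.50, 0.00513) and Hif1a (1.06 ± 0.32, 0.0302, lost without B1/P tumor 246361 or 255232 or P/Rbf tumor 290845, highest 0.0941), were called higher than in B1/P tumors, beside 8.43% of all genes. In B1/P/Rbf against B1/P tumors, 2 of 5 luminal epithelial markers were also called higher, beside 7.36% of all genes. The sums of the 5 were 2390 to 4760 against 694 to 2180 CPM. Among them Elf5 went the opposite way without a call, at 5.72 ± 9.14 CPM in B1/P/Rbf against 49.7 ± 24.4 in B1/P tumors. Of 5 basal epithelial markers 2 were called lower, beside 9.29%, with sums of 31.4 to 267 against 310 to 1830 CPM. These 2 became 1 without B1/P/Rbf tumor 208857, 208863 or 210906 or B1/P tumor 246361. The part of such cells in differences between these models was not tested. Nr1i2, the pregnane X receptor that induces Abcb1 in liver and intestine, did not pass the filter and averaged at most 0.0561 CPM in any group. Nfe2l2, which encodes NRF2, was at 77.7 ± 27.5 CPM in B1/P/Rbf, 109 ± 27.1 in B1/P and 115 ± 94.3 in P/Rbf tumors. Of 8 enzymes controlled by NRF2, 3 were called higher and 1 lower in P/Rbf than in B1/P tumors, beside 8.43% and 10.8% of all genes. The catalytic subunit of glutamate-cysteine ligase, Gclc, rose (1.66 ± 0.36, 0.0052) and the quinone reductase Nqo1 fell from 37.5 ± 26.3 to 1.09 ± 1.04 CPM (-5.10 ± 0.87, 0.00133). Both genes were also called in B1/P/Rbf tumors, Gclc higher (1.52 ± 0.36, 0.00898) and Nqo1 lower, at 0.877 ± 0.925 CPM (-5.41 ± 0.88, 0.00103).

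Glutathione forms the conjugates that Abcc1 exports. All 25 genes listed for its synthesis and transfer were tested. Against glands, 16 were called lower and 1 higher in B1/P/Rbf, 11 lower and 0 higher in B1/P, and 12 lower and 2 higher in P/Rbf tumors. Of all genes, 20%, 16.9% and 20.3% were called lower in these comparisons, and 17.1%, 16.8% and 17.4% higher. The 11 in B1/P tumors became 6 without gland 330155 or 330156, and the higher calls of B1/P/Rbf and P/Rbf tumors went down to 0 and 1 without single libraries. Their median log2 fold changes were -2.02, -1.19 and -1.43, beside 0.05, 0.12 and 0.05 over all genes tested. The glutathione transferase Gsta3 was at 28.0 ± 5.08 CPM in glands and at 0.274 ± 0.135 in B1/P/Rbf, 5.48 ± 5.65 in B1/P and 0.169 ± 0.0407 in P/Rbf tumors. Among tumors, Ggt1, which cleaves glutathione outside the cell, rose from 2.33 ± 2.71 CPM in B1/P to 17.7 ± 12.0 in B1/P/Rbf (2.93 ± 0.87, edgeR adjusted p = 0.0301, lost in 6 of 18 fits without 1 library) and 23.8 ± 22.0 in P/Rbf tumors (3.35 ± 0.89, 0.0154).

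Carriers that bring drugs into cells and other exporters were listed as 18 genes, of which 16 were tested. Against B1/P tumors, 4 of them passed the threshold upward and 0 downward in B1/P/Rbf, and likewise 4 and 0 in P/Rbf tumors. Of all genes, 7.36% and 8.43% were called higher in these comparisons, and 9.29% and 10.8% lower. Without B1/P tumor 225068 the 4 in B1/P/Rbf became 1, and the 4 in P/Rbf tumors included Mvp, the major vault protein gene, whose call was lost in 14 of 18 fits without 1 library. The organic cation carrier Slc22a3 was at no more than 0.118 CPM in any B1/P tumor, at 0.0761 to 2.27 in B1/P/Rbf (edgeR adjusted p = 0.0421, lost in 10 of 18 fits without 1 library) and at 0.0575, 1.83, 2.08, 65.8 and 1.23 in P/Rbf tumors (log2 fold change 8.32 ± 1.71, 0.00387), where without tumor 287822 the log2 fold change was 4.87. In the glands it was at 31.0 to 42.2 CPM. The prostaglandin carrier Slco2a1 rose from 143 ± 58.7 CPM to 428 ± 203 in B1/P/Rbf (log2 fold change 1.58 ± 0.37, edgeR adjusted p = 0.00909) and to 503 ± 218 in P/Rbf tumors (1.81 ± 0.38, 0.00413). The copper carrier Slc31a1, through which cisplatin can enter, rose in B1/P/Rbf tumors (1.26 ± 0.37, 0.0281), a call lost without B1/P/Rbf tumor 208855 (log2 fold change 0.62, adjusted p = 0.0891) and without B1/P tumor 225068 or 246361. Of 10 genes for targets of drugs that these transporters export, B1/P/Rbf tumors had 1 called higher and 2 called lower than B1/P tumors, and P/Rbf tumors had 2 higher and 1 lower, beside 16.7% and 19.2% of all genes called. Each of the counts of 2 became 1 in 5 of 18 fits without 1 library. Top2a, the target of anthracyclines, rose over B1/P tumors in both models, from 276 ± 101 CPM to 536 ± 106 (0.95 ± 0.29, 0.0313, lost in 6 of 18 fits without 1 library) and 702 ± 280 (1.34 ± 0.29, 0.00513). Cdk6, a target of palbociclib, fell from 206 ± 149 CPM to 15.3 ± 6.67 in B1/P/Rbf (-3.75 ± 0.63, 0.00128) and 21.1 ± 18.1 in P/Rbf tumors (-3.29 ± 0.62, 0.00243).

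Each member was also set beside every other tested gene by Pearson's r of log2 CPM over the 18 libraries, with r over the 15 tumors after it, as a description without a test. The libraries share tissue make-up as well as expression. The genes most like Abcb1a were 4930578C19Rik (0.95 and 0.91), Scarf1, a scavenger receptor of endothelial cells (0.93 and 0.92), and Tlr11 (0.92 and 0.86). Abcb1b was most like Cd302 (0.93 and 0.93), the leukocyte adaptor gene Lcp2 (0.92 and 0.90) and Ggt5 (0.91 and 0.86). Abcc5 was most like the dipeptidase gene Dpep1 (0.91 and 0.86), Abcg3 (0.91 and 0.85) and Ggt5 (0.90 and 0.84), and Abcg2 like Rab39 (0.87 and 0.83). The closest genes to the other members reached 0.85 for Abcc1 (Zfp85os), 0.81 for Abcc3 (Clec10a), 0.83 for Abcc4 (Irak4) and 0.81 for Abcc10 (Tmem186). Among the members, Abcb1b was closest to Abcc5 (0.85 and 0.76) and Abcg2 (0.82 and 0.74), while it stood at 0.72 and 0.54 with its paralog Abcb1a. Abcc4 ran against Abcg2 (-0.55 and -0.63).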

How the data were processed

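Stranded mRNA libraries of 18 mice were sequenced in pairs of reads. The authors trimmed reads with Cutadapt 1.18 and deposited RSEM 1.3.0 expected counts per gene, not normalized, and 5.61% of values are not whole. A human reference is named in the study's methods, but each of the 55450 identifiers and symbols is that of GENCODE M21 (mouse, GRCm38). Expected counts were rounded, filtered with filterByExpr (minimum count 10, 19186 genes) and fitted in edgeR 4.0.16 (R 4.3.3, TMM, glmQLFit and glmQLFTest) with the genotype group as the only term. Adjusted p values of 0.05 or less were called. Alternatives were DESeq2 1.42.0, limma 3.58.1 (voom, quantile), no TMM, no filter (32772 genes), a minimum log2 CPM of 6 in 6 or more samples, a term for mouse number (above 246361 or not, a border set by hand), only the groups compared, and each library left out. Leaving out libraries or using transcript length for the mean shares of members was chosen after seeing the data. The fit was tested on simulated data. Log2 CPM used a prior count of 2. Genes were named by a rule: the 8 members, Brca1 and Trp53, per list up to 3 called genes with the largest change at a mean of 1 CPM or more, the 3 most similar genes per member, and chromosomal neighbours. Not all genes that the rule picks are printed, and those printed were chosen after their values were seen. Genes outside it (Nr1i2, Nfe2l2 and Gm5106) were chosen after their values were seen. The members and lists were chosen with earlier results of these data known. Depth was 27661173 to 37794889 counts per library, and the spread between mice, not counting error, sets the precision.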

Additional observations from a re-analysis of the deposited data

Results flagged for a closer look

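Of 24 sets of 5 tumors (8 genes in 3 models), 3 held a tumor whose distance from its nearest neighbour took up most of the range of the set (Dixon's ratio above 0.71). For normally distributed values chance gives about 1 such case in 20 sets, and the rate for CPM values was not computed. Abcc3 was at 97.8 CPM in B1/P/Rbf tumor 208855, with a ratio of 0.757. Abcc4 was at 119 CPM in B1/P/Rbf tumor 208863, in which Brca1 was also highest of its model at 45.0 CPM, with a ratio of 0.912. Abcc10 was at 44.1 CPM in B1/P tumor 246361, with a ratio of 0.723, and Dlk2, which overlaps it on the opposite strand, was at 41.7 CPM in the same tumor.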

How the results depend on the processing

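Bulk tissue, 3 to 5 mice per group and the overlap of genotype with mouse number limit these comparisons, and for Abcb1a and Abcb1b so does the division of shared reads. No paired analysis was possible because the labels carry no replicate numbers that the groups share. Over all comparisons and alternatives, 1071 log2 fold changes of members kept their direction and their side of the threshold, 43 changed sign, 29 became called and 15 lost a call, and no value that changed sign had been called. Causes of the changes were not tested. The stricter filter of log2 CPM left Abcc1 as the single member tested, so the number of members called was 0 in P/Rbf against B1/P tumors, in B1/P/Rbf against glands and in P/Rbf against glands. The number of members called in P/Rbf against B1/P tumors was 2, and it became 3 with DESeq2, 3 without TMM, 1 with limma-voom, 1 with only the groups compared, 0 with a term for mouse number, and 1 to 3 without single libraries. In B1/P/Rbf against P/Rbf tumors it went from 0 to 2 with DESeq2, and in B1/P/Rbf against glands from 2 to 4 with limma-voom, which added Abcb1b and Abcg2. In B1/P against glands it went from 0 to 2 with DESeq2, limma-voom, a term for mouse number or only the groups compared, to 1 without TMM, and to between 0 and 2 without single libraries. In P/Rbf against glands it was 4 to 5 without single libraries.

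Over all genes, 3195 were called in B1/P/Rbf against B1/P tumors, 886 with the stricter filter and 2039 with only these groups. In P/Rbf against B1/P tumors 3684 were called, 866 with the stricter filter, 2008 with a term for mouse number and 1507 with only these groups. In B1/P/Rbf against P/Rbf tumors 54 were called, 1015 with DESeq2, 26 with limma-voom, 3 with the stricter filter, 5 with a term for mouse number, 1 with only these groups and 9 to 131 without single libraries. Against glands 7108 were called in B1/P/Rbf, 1760 with the stricter filter and 3879 with a term for mouse number. There 6481 were called in B1/P, 1600 with the stricter filter and 4320 to 6633 without single libraries, and 7230 in P/Rbf, 1669 with the stricter filter.

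The sign of some uncalled log2 fold changes turned. With a term for mouse number, Abcc4 became -0.18 and Abcc10 -0.35 in B1/P/Rbf against B1/P, Abcb1a 0.94 and Abcc10 0.75 in P/Rbf against B1/P, and Abcc1 -0.17, Abcc5 -0.17 and Abcc10 -1.10 in B1/P/Rbf against P/Rbf tumors. Against glands, the same term gave Abcc1 -0.13, Abcc4 -0.84 and Abcc10 -1.22 in B1/P/Rbf, and Abcc4 -0.65 and Abcc10 -0.87 in B1/P tumors. With limma-voom, Abcc4 became -0.42 in B1/P/Rbf against B1/P and -0.09 in B1/P/Rbf against glands, Abcc10 0.04 in P/Rbf against B1/P and 0.12 in P/Rbf against glands, and Abcc1 -0.19 in P/Rbf against glands. That Abcc1 value was -0.37 with the stricter filter, and Abcc10 in P/Rbf against glands was 0.16 without TMM. Without single libraries, B1/P/Rbf against B1/P gave -0.50 to 0.28 for Abcb1b, -0.40 to 0.01 for Abcc1, -1.51 to 0.76 for Abcc4 and -0.17 to 0.67 for Abcc10. In P/Rbf against B1/P, Abcc10 ranged from -0.54 to 0.31. In B1/P/Rbf against P/Rbf, Abcb1a ranged from -0.50 to 0.46 and Abcc4 from -1.91 to 0.13. Against glands, Abcc3 ranged from -0.24 to 0.38 and Abcc4 from -1.06 to 0.98 in B1/P/Rbf, Abcc4 from -0.06 to 0.69 and Abcc10 from -0.43 to 0.42 in B1/P, and Abcc1 from -0.13 to 0.25 and Abcc10 from -0.26 to 0.02 in P/Rbf tumors.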
